A study of Mus musculus with 23 samples.

Results

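The 33 genes described here are the members of the 4 mouse Hox clusters, chosen by their symbols (Hox, a cluster letter from a to d and a number) among the 18193 genes that 1 or more probe sets measured under a single symbol. They comprise 9 HoxA genes, 9 HoxB genes, 7 HoxC genes and 8 HoxD genes. RefSeq lists 39 genes of this pattern in the mouse. The other 6 were not analysed here, and of these Hoxb8 and Hoxd4 had only probe sets that list several genes.

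Expression was measured on 1 array for each of 23 clonal lines of white fat preadipocytes. All lines came from the stromovascular cells, the non-adipocyte fraction of fat, of 1 male Immortomouse aged 8 weeks. This strain carries an interferon-inducible, temperature-sensitive SV40 large T antigen, so that its cells divide in culture at a permissive temperature. The cells were kept at 33 °C with interferon-gamma at 10 units per mL, and after 2 passages 190 single cells were sorted without a gate, each to found a line. All 23 lines share this genotype, temperature and interferon treatment, and each line is 1 clone.

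Clone names give the depot: 12 lines are named SCF, for subcutaneous fat, and 11 are named PGF, for perigonadal fat. A second label gives the type that the submitters assigned: Type 1 (3 lines, all PGF), Type 2 (5 lines, 4 SCF and 1 PGF), Type 3 (8 lines, 4 of each depot) and Other (7 lines, 4 SCF and 3 PGF). In the study the types came from expression data, so p-values between types describe groups that expression itself had formed. Because all lines came from 1 mouse, every p-value measures the spread between clones and not between animals.

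Hox proteins are homeodomain transcription factors that give cells their position along the head-to-tail axis of the embryo. Their genes lie in order in each cluster, low-numbered (anterior) genes at one end and high-numbered (posterior) genes at the other, and genes of the same number in different clusters are paralogues. Polycomb proteins keep unused Hox genes silent, trithorax proteins keep used ones active, and much of the pattern set in the embryo persists in adult mesenchymal cells. Fat depots are known to differ in their Hox expression.

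Array medians lay between 5.09 and 5.16 on the deposited log2 scale, and no 2 arrays were identical. Of the 10 measured preadipocyte markers, 7 were above the table median of 5.13 in all 23 lines, among them Pdgfra (8.49 to 12.70) and Pdgfrb (8.82 to 12.27). Cd34 (3.49 to 10.85), Thy1 (4.46 to 10.50) and Ebf2 (2.85 to 8.57) fell below it in some lines. Ebf2 averaged 3.58 in Type 1, against 7.30 in Type 2, 7.64 in Type 3 and 7.72 in Other. Cd34 (9.51) and Thy1 (9.25) instead averaged highest in Type 1. Ptprc, Pecam1 and Emcn, which define leukocytes and endothelial cells, stayed at or below 3.76. Of the 7 leukocyte markers 2 were above the table median in all lines, Csf1r (5.98 to 11.68) and Cd3e (5.29 to 5.94), and 3 in none, and the list averaged 4.42 to 5.50 per line. Cd68 was at 4.12 to 7.66. Of the 5 endothelial markers 1 was above it in all lines, Kdr (5.49 to 8.86), and 3 in none, with Tek at 3.97 to 10.59 and a list mean of 4.08 to 5.59. Adipoq, a mature adipocyte gene, was at 2.72 to 3.96 in 22 lines and at 6.48 in SCF3-9. The 8 mesothelial markers averaged 9.02 to 10.52 in the Type 1 lines and 4.04 to 5.43 in the others, and all 8 were detected above the table median in some line. Krt19 among them went the other way, with a mean of 5.49 in Type 1 against 7.78 in Type 2, 6.33 in Type 3 and 7.28 in Other. Line PGF2-8, of Type 1, stood apart in its control probes: the 3′ minus 5′ actin difference was 1.58 there and 0.53 to 1.00 in the other 22 lines, and that of Gapdh was 0.26 against -0.10 to 0.11.

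Promoters of 5 Hox genes named in the results are printed. Hoxa7, Hoxa9 and Hoxa10 lie on both sides of a step in line PGF2-8. Hoxb4 belongs to a set of HoxB genes that varied together, and Hoxd8 varied most among the HoxD genes. The levels and comparisons do not draw on the sequences. The sequences are RefSeq's (GRCm38.p6), from 250 bases before to 50 bases after an annotated start, read 5′ to 3′ on the gene's strand, and Hoxa10 has 2 annotated starts. Capitals mark 4 motifs searched on both strands, which may overlap: TATAAA, the core promoter element, and CCAAT, bound by NF-Y. They also mark TGATNNAT, of the kind bound by Hox proteins with Pbx partners, and TTTATG, of the kind bound by posterior Hox and Cdx proteins.
Hoxa7 (chr6:52218524-52218823, minus strand): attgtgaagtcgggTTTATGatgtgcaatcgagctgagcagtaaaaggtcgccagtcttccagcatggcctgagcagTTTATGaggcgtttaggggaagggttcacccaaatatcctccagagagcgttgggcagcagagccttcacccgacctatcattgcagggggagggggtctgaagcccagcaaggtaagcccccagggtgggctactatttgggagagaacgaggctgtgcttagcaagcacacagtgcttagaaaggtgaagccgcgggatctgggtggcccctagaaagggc
Hoxa9 (chr6:52227321-52227620, minus strand): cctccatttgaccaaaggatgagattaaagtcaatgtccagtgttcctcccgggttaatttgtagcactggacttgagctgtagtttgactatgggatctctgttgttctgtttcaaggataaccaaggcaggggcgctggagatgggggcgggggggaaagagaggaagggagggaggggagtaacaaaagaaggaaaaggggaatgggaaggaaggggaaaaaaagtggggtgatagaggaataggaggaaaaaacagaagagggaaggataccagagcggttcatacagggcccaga
Hoxa10, downstream start (chr6:52234890-52235189, minus strand): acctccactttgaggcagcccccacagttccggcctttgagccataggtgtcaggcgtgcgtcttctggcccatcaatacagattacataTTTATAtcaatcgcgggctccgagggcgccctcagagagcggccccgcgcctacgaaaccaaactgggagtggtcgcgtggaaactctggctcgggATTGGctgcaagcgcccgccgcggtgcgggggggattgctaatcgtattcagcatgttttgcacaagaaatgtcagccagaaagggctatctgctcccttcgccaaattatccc
Hoxa10, upstream start (chr6:52240805-52241104, minus strand): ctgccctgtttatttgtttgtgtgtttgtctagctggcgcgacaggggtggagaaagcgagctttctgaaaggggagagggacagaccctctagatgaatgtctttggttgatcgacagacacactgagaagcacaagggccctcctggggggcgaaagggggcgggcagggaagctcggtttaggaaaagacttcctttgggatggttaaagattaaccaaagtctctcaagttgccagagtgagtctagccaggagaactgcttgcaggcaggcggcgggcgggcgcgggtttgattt
Hoxb4 (chr11:96318017-96318316, plus strand): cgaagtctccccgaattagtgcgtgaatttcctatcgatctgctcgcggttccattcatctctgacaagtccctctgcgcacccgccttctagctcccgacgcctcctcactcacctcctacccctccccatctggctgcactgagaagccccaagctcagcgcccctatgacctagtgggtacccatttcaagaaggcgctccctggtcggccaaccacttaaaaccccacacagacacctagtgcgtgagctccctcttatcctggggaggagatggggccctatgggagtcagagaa
Hoxd8 (chr2:74704365-74704664, plus strand): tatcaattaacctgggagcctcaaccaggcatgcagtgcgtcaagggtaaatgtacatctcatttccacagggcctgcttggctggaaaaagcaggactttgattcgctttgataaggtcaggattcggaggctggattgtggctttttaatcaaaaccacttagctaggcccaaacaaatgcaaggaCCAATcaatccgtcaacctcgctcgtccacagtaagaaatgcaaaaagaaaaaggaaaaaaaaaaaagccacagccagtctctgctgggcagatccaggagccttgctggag

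Over the 21 promoters found for 19 of the 33 genes, CCAAT was present in 12 (57.1%), against 37.4% of all 32851 promoters of the same length. TATAAA was present in 2 of 21 (13.6% of all promoters), TGATNNAT in 3 (8.85% of all) and TTTATG in 3 (11.9% of all). Of the sequences printed, Hoxa7 held TTTATG at 2 places, the downstream Hoxa10 start held TATAAA and CCAAT, and Hoxd8 held CCAAT. The printed promoters of Hoxa9 and Hoxb4 and the upstream Hoxa10 promoter held none of these letters. The median number of CpG dinucleotides was 15 in the Hox promoters and 7 in all promoters. These matches describe the sequence and are not evidence of binding.

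Of the 33 Hox genes, 12 had signals above the table median in all 23 lines, 10 in some lines and 11 in none. The clusters differed in this count: all 7 HoxC genes were above it in every line, with 3 of 9 HoxA genes, 2 of 9 HoxB genes and 0 of 8 HoxD genes. By position, 3 of 10 anterior genes (numbers 1 to 4), 5 of 9 central genes (5 to 8) and 4 of 14 posterior genes (9 to 13) were above it in every line. A line held between 16 and 21 Hox genes above the median. In at least 3 lines 20 of the 33 Hox genes were above it, against 12307 of all 18193 genes. The share of all genes above it in every line was not counted. The count compares each gene's signal with the whole table and does not rank the Hox genes by abundance, since probe sets differ in brightness. A higher bar, a log2 level of 7, left 2 genes, Hoxc8 and Hoxc9, above it in all lines. The count also rests on taking the brightest probe set of each gene. With the mean of probe sets 9 genes were above the table median in all lines. The other Hoxc5 probe sets reached at most 4.74 and 4.41 and so lay below the median in every line.

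**Figure D1:**
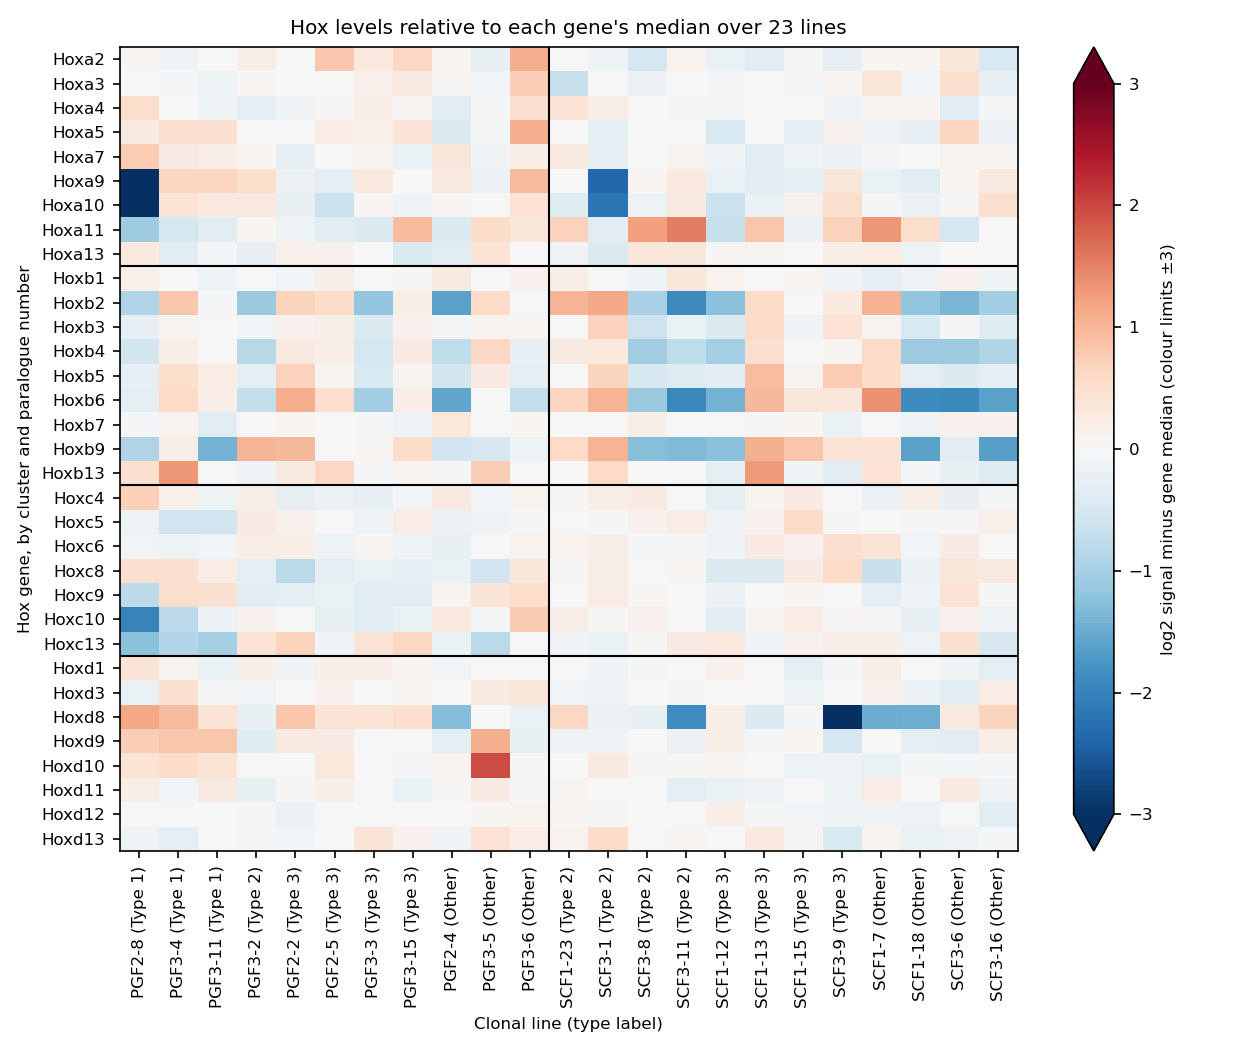
Log2 signal of the 33 Hox genes (rows, by cluster and paralogue number) in the 23 clonal lines (columns, PGF left of the vertical line and SCF right of it), each gene given relative to its median over the lines. HoxB genes alternate between high and low across both depots, and PGF2-8 and SCF3-1 are low at Hoxa9 and Hoxa10.

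The HoxA cluster (chr6:52162417-52260880) spans 98.5 kb. Hoxa3, Hoxa5 and Hoxa7 were above the table median in every line, with ranges of 5.16 to 6.59, 6.99 to 8.51 and 6.08 to 7.19. Hoxa5, known for its roles in lung and fat, was highest in PGF3-6. Hoxa9, widely studied in blood stem cells and leukaemia, and Hoxa10, required for uterine and limb patterning, were above the median in 22 lines and far below it in PGF2-8. Hoxa11, a gene of forearm and uterine patterning, crossed the median: 11 lines were above it, and the signals ran from 4.06 in PGF2-8 to 6.66 in SCF3-11. Hoxa2 (2.39 to 3.99), Hoxa4 (2.87 to 3.71) and Hoxa13 (3.35 to 4.19) were below the median in every line.

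The HoxC cluster (chr15:102921131-103036856) had SDs of 0.19 to 0.52 between lines over its 7 genes. Hoxc4 (6.49 to 7.50), Hoxc5 (5.44 to 6.60) and Hoxc6 (6.24 to 6.98) stayed within narrow bounds. Hoxc8 (8.03 to 9.43), a thoracic patterning gene known to restrain brown fat genes, and Hoxc9 (7.63 to 8.93), often used as a white fat marker, were also present in all lines. Hoxc10, a lumbar-level gene with a known role in restraining browning, ran from 6.55 to 9.34. Hoxc13, best known for hair and nail formation, ran from 6.23 to 8.15.

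In the HoxD cluster (chr2:74668225-74765142) only Hoxd8 and Hoxd9 were above the median in more than 2 lines. Hoxd8 was above it in 22 lines and Hoxd9, which acts in limb and spinal patterning, in 13. Hoxd13, a digit patterning gene, was above it in 2 lines (4.25 to 5.25). Hoxd1 (2.49 to 3.17), Hoxd3 (2.91 to 3.68), Hoxd10 (2.45 to 4.62), Hoxd11 (3.01 to 3.55) and Hoxd12 (2.94 to 3.49) were below it in every line, and among them only Hoxd10 had an SD over 0.18 (0.44).

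Variation between clones differed widely among the 33 genes. The SD over the 23 lines was 1.23 for Hoxa9, which placed it at percentile 98.0 of all 18193 genes, 1.08 for Hoxb6, 1.04 for Hoxa10, 1.03 for Hoxd8, 0.97 for Hoxb2 and 0.93 for Hoxb9. At the other end, Hoxd12 (0.11), Hoxb7 (0.13) and Hoxb1 (0.15) hardly varied and had low signals in all lines. Without the 3 Type 1 lines, which include PGF2-8, the SD was 0.63 for Hoxa9 and 0.58 for Hoxa10. It was then 1.14 for Hoxb6, 1.02 for Hoxd8, 1.00 for Hoxb2 and 0.94 for Hoxb9.

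Within the HoxB cluster (chr11:96194316-96368254, 173.9 kb) 6 genes went up and down together from clone to clone: Hoxb2 and Hoxb3 and Hoxb4, of hindbrain and neck identity, Hoxb5 and Hoxb6, of the neck and upper trunk, and Hoxb9, of the thorax. Hoxb6 was lowest in SCF3-6 and SCF3-11, both at 4.44, had a median of 6.37 and was highest in SCF1-7 at 7.73. Hoxb2 ran from 5.08 in SCF3-11 to 8.14 in SCF3-1, Hoxb4 from 4.91 in SCF3-6 to 6.63 in PGF3-5, and Hoxb9 from 5.19 in SCF3-16 to 7.89 in SCF1-13. Hoxb3 ran from 5.32 to 6.63, and Hoxb5 from 3.46 to 4.95, below the table median in every line. High and low lines occurred in both depots, with Hoxb6 at 4.80 to 7.46 in the PGF lines and 4.44 to 7.73 in the SCF lines, so the depots overlapped over nearly the whole range. Types 2 and 3 and Other each held both high and low lines as well: Hoxb6 ran from 4.44 to 7.38 in Type 2, from 4.96 to 7.46 in Type 3 and from 4.44 to 7.73 in Other. In Type 1 it was 6.07, 6.96 and 6.58.

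Over the 15 pairs of these 6 genes, Pearson's r across the 23 lines was 0.60 to 0.93, with a median of 0.76, and the median Spearman rho was 0.78. The median r was 0.70 within the 11 PGF lines, 0.87 within the 12 SCF lines and 0.80 without the 3 Type 1 lines. For Hoxb4 and Hoxb6, r was 0.92, rho 0.87, and r 0.90 without the 2 lines farthest from the Hoxb4 median. The 6 genes were picked after these values had been seen, and both values of a pair come from the same array of the same line, so the coefficients are descriptions. Among all 36 HoxB pairs the median r was 0.57, against 0.06 for HoxA pairs, 0.01 for HoxC pairs, 0.15 for HoxD pairs and 0.00 for the 407 pairs of genes in different clusters.

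**Figure D2:**
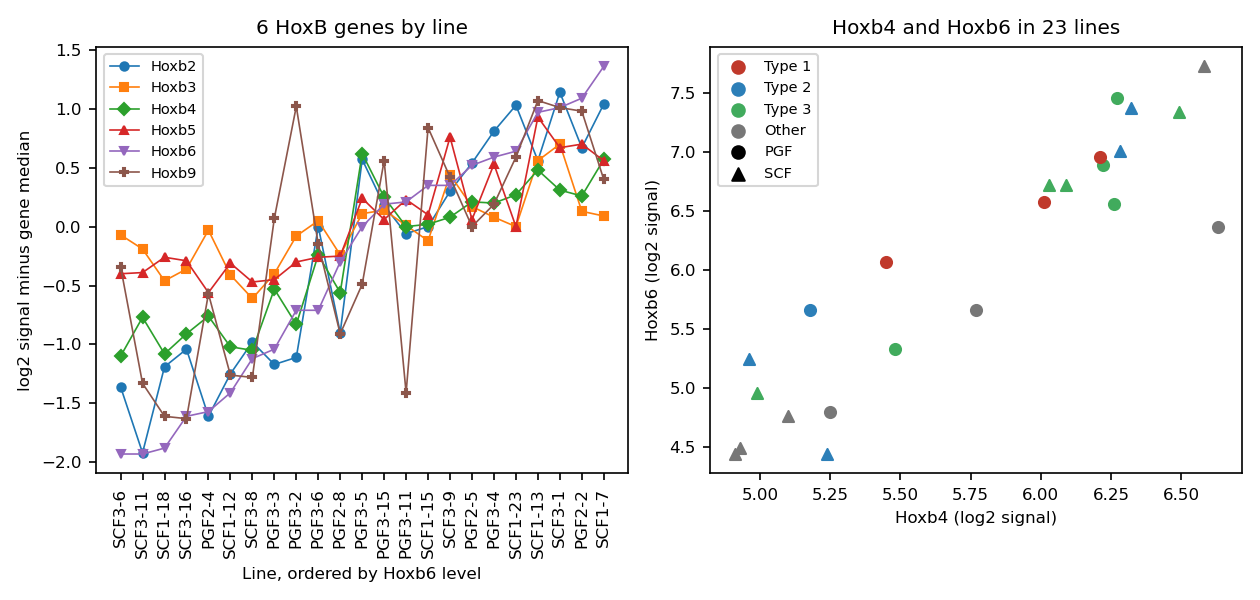
Left, log2 signal of 6 HoxB genes relative to each gene's median, with the 23 lines ordered by Hoxb6. Right, Hoxb6 against Hoxb4 (log2 signal), 1 point per line, coloured by type label with circles for PGF and triangles for SCF; r was 0.92 and both depots extend over the range.

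The likeness was close enough that the 5 genes most like Hoxb6 among all 18192 others were HoxB genes: Hoxb2 (r = 0.93), Hoxb4 (0.92), Hoxb5 (0.86), Hoxb9 (0.71) and Hoxb3 (0.71). Hoxb2, Hoxb4 and Hoxb5 each had 4 HoxB genes as their 4 nearest. Hoxb9 was the loosest of the 6. It stood at 5.41 in PGF3-11, where Hoxb6 was 6.58, and at 7.84 in PGF3-2, where Hoxb6 was 5.66. Hoxb7, which lies between Hoxb6 and Hoxb9, kept a signal of 3.68 to 4.31 in all lines, and Hoxb1 and Hoxb13 at the ends of the cluster ran from 2.81 to 3.38 and from 3.58 to 5.28. For genes flanking the cluster, r with Hoxb6 was 0.05 for Skap1, 0.05 for Ttll6 and -0.12 for Calcoco2. Their signals were low and nearly flat (3.93 to 4.57, 4.77 to 5.36 and 2.54 to 3.01). These coefficients therefore cannot show whether the shared variation ends at the edge of the cluster. Second probe sets of Hoxb3 and Hoxb4 had r of 0.87 and 0.92 with the probe set used.

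In PGF2-8 the HoxA and HoxC clusters showed a step by position. Hoxa9 was at 3.84 in this line, against 6.58 to 9.89 in the other 22, a log2 difference of -5.12 from their median. Hoxa10 was at 3.39 against 5.55 to 8.24, a log2 difference of -4.33, and Hoxa11 at 4.06 against 4.46 to 6.66. The Hoxa9 and Hoxa10 signals in PGF2-8 were as low as those of genes that were low in all lines, such as Hoxa4 and Hoxa13, so no fold is given for them. Hoxc9 (7.63 against 8.06 to 8.93), Hoxc10 (6.55 against 7.76 to 9.34) and Hoxc13 (6.23 against 6.46 to 8.15) were also the lowest of all lines. Genes on the anterior side of the step went the other way or stayed inside the range: Hoxa7 (7.19 against 6.08 to 6.76), Hoxa4 (3.71 against 2.87 to 3.70) and Hoxc4 (7.50 against 6.49 to 7.06) were the highest of all lines, whereas Hoxa2, Hoxa3, Hoxa5, Hoxc5, Hoxc6 and Hoxc8 were within the others' range. The Hoxa4 lead was slight, its signal was below the table median in every line, and its other probe set was not highest there (2.90 against up to 3.15). Hoxa13, at the posterior end, was also within the others' range (4.08), with a low signal in every line.

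PGF2-8 was thus the lowest line for 6 Hox genes and the highest for 5. It was also an extreme line across the array: it had the lowest signal of all 23 lines for 12.0% of the 18193 genes and the highest for 15.0%, more than any other line. Its raised 3′ minus 5′ control difference, given above, goes with these values, and the part it plays in them was not tested. A second Hoxa9 probe set, with r = 0.96 to the first, was also lowest in this line, by less: 5.26 against 6.28 in SCF3-1 and up to 7.71 in the others. Both were read in the same RNA. The other Type 1 lines, PGF3-4 and PGF3-11, did not share the step at Hoxa9 (9.58 and 9.59), Hoxa10 (8.13 and 8.00) or Hoxc9 (8.93 and 8.87). Their Hoxc13 (6.57 and 6.46) was below all lines outside Type 1. Hoxc10 was below those lines in PGF3-4 (7.76) but not in PGF3-11 (8.37). Their Hoxa11 (4.59 and 4.77) lay within the range of the lines outside Type 1.

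**Figure D3:**
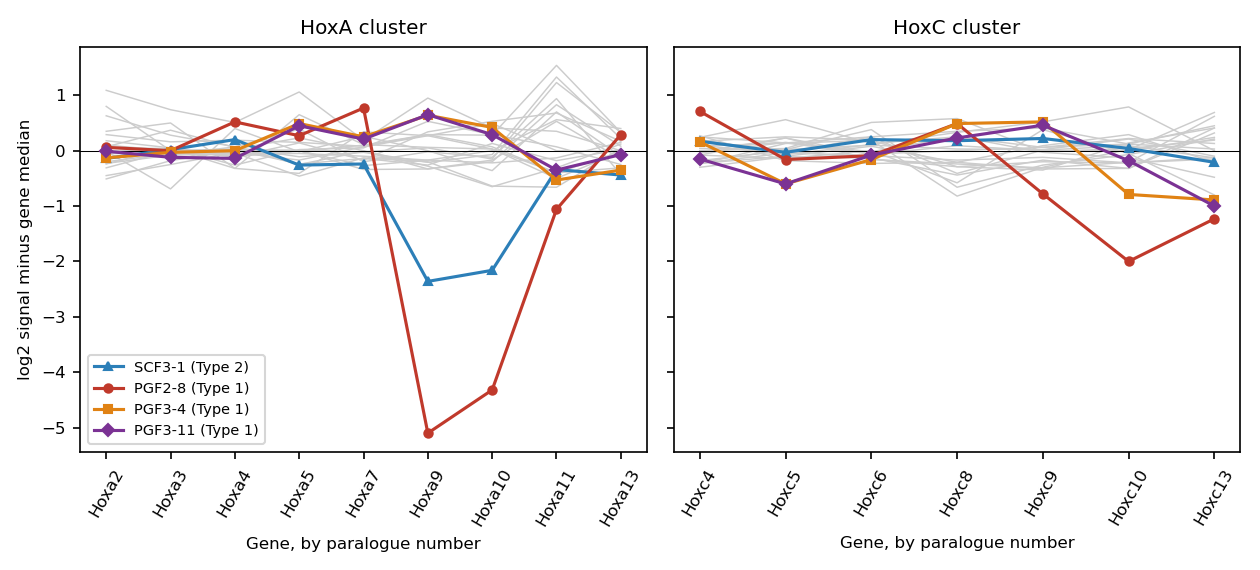
Log2 signal of the HoxA genes (left) and HoxC genes (right) by paralogue number, relative to each gene's median over 23 lines. PGF2-8 (red) is the lowest line at Hoxa9, Hoxa10, Hoxa11, Hoxc9, Hoxc10 and Hoxc13 but not at Hoxa13, and SCF3-1 (blue) is low at Hoxa9 and Hoxa10. PGF3-4 (orange) and PGF3-11 (purple) are the other Type 1 lines, and grey marks the other 19 lines.

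SCF3-1, a Type 2 line, had the second lowest Hoxa9 and Hoxa10 signals, at 6.58 and 5.55. The other 4 Type 2 lines ran from 8.94 to 9.47 for Hoxa9 and from 7.35 to 8.00 for Hoxa10, so SCF3-1 lay outside them for both genes. Its Hoxa13 (3.35) was the lowest of all lines, next to PGF3-15 (3.36), and its Hoxa5 (7.19) was below the other Type 2 lines (7.43 to 7.47). Its Hoxa11 (4.78) and its HoxC genes were inside the range of the other lines, and its Hoxb2 (8.14), Hoxb3 (6.63) and Hoxd13 (5.25) were the highest of all lines. Its actin 3′ minus 5′ difference was 0.66, near the low end of the 23. Over all lines Hoxa9 and Hoxa10 had r = 0.98, rho = 0.83, and r = 0.75 without PGF2-8 and SCF3-1, the 2 lines farthest out.

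Hoxa11 varied on its own within HoxA and together with the overlapping antisense gene Hoxa11os, measured by a separate probe set, with r = 0.94, rho = 0.94, and r = 0.93 without the 2 farthest lines. Hoxa2, Hoxa3 and Hoxa5 were each highest in PGF3-6 (3.99, 6.59 and 8.51), a line labelled Other, which was also highest for Hoxa9 (9.89), Hoxc9 (8.93) and Hoxc10 (9.34).

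Hoxd8 was at 4.60 in SCF3-9 and 5.83 in SCF3-11, between 6.20 and 6.39 in SCF1-7, SCF1-18 and PGF2-4, and at 7.28 to 8.85 in the remaining 18 lines. SCF3-9, below the table median, thus had a log2 difference of -3.20 from the median of the other lines, and a second Hoxd8 probe set followed the first with r = 0.98. SCF3-9 was the line with raised Adipoq (6.48), and it was also the lowest line for 9.67% of all genes. The part of either in its Hoxd8 signal was not tested. Hoxd9 and Hoxd10 peaked in PGF3-5, at 6.23 and 4.62, where the other 22 lines reached 6.00 and 3.20, and Hoxd8 was 7.70 there.

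The first comparison asked whether Hox genes differ between depots within the same type label. No Hox gene passed (0 of 33) in the PGF minus SCF comparison by limma with the type label in the model, at an adjusted p under 0.05 over all 18193 genes. All Type 1 lines are PGF, so in this model the difference rests on the 8 other PGF lines and the 12 SCF lines. The PGF levels given next include the Type 1 lines. Among all genes 0 passed, which is 0% of those tested. At an unadjusted p under 0.05, 1466 genes (8.06%) were counted, 1 of them a Hox gene.

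That gene was Hoxa2, which patterns the hindbrain and second branchial arch. Its signals were 2.67, 2.96 and 3.99 (lowest, median and highest) in the PGF lines and 2.39, 2.81 and 3.25 in the SCF lines, so the depots overlapped. The limma difference was 0.45 ± 0.15 (SE; 95% interval 0.13 to 0.76; adjusted p = 0.544). Hoxd10 followed, with 2.59, 2.74 and 4.62 in PGF against 2.45, 2.64 and 2.93 in SCF, a difference of 0.33 ± 0.19 (adjusted p = 0.681). Hoxc8 was 8.03, 8.64 and 9.34 in PGF and 8.19, 8.91 and 9.43 in SCF, a difference of -0.27 ± 0.16 (adjusted p = 0.682). All 3 overlapped between depots, and 2 of them, Hoxa2 and Hoxd10, had low signals throughout. Raw depot means, with Type 1 included, parted more in a second probe set of Hoxa5 and of Hoxa3. PGF minus SCF was 0.73 there for Hoxa5, against 0.30 in the one used, and 0.64 for Hoxa3, against 0.12. The remaining Hoxa3 probe sets had at most 0.06. It was smaller in a second Hoxb4 probe set (0.01 against 0.22) and alike in that of Hoxd8 (0.85 against 0.86). With the mean of probe sets no Hox gene passed by limma.

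The 33 differences had a median of 0.08 against 0.01 for all genes, and 24 were above 0. The share of all genes above 0 was not counted, and the 33 Hox genes are not independent of each other. The 95% interval of 28 genes lay inside -1 to 1, and the intervals together reached from -0.94 (Hoxb2) to 1.55 (Hoxd8). Intervals were widest for the genes that varied most between clones: Hoxa9 (-0.78 to 1.51), Hoxd8 (-0.25 to 1.55), Hoxb6 (-0.90 to 1.07) and Hoxb2 (-0.94 to 0.97). For Hoxc10 the interval was -0.28 to 0.45 and for Hoxc9 -0.37 to 0.24. A missed threshold does not show that the depots were alike: differences of the sizes inside these intervals were not excluded by these 23 lines.

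**Figure D4:**
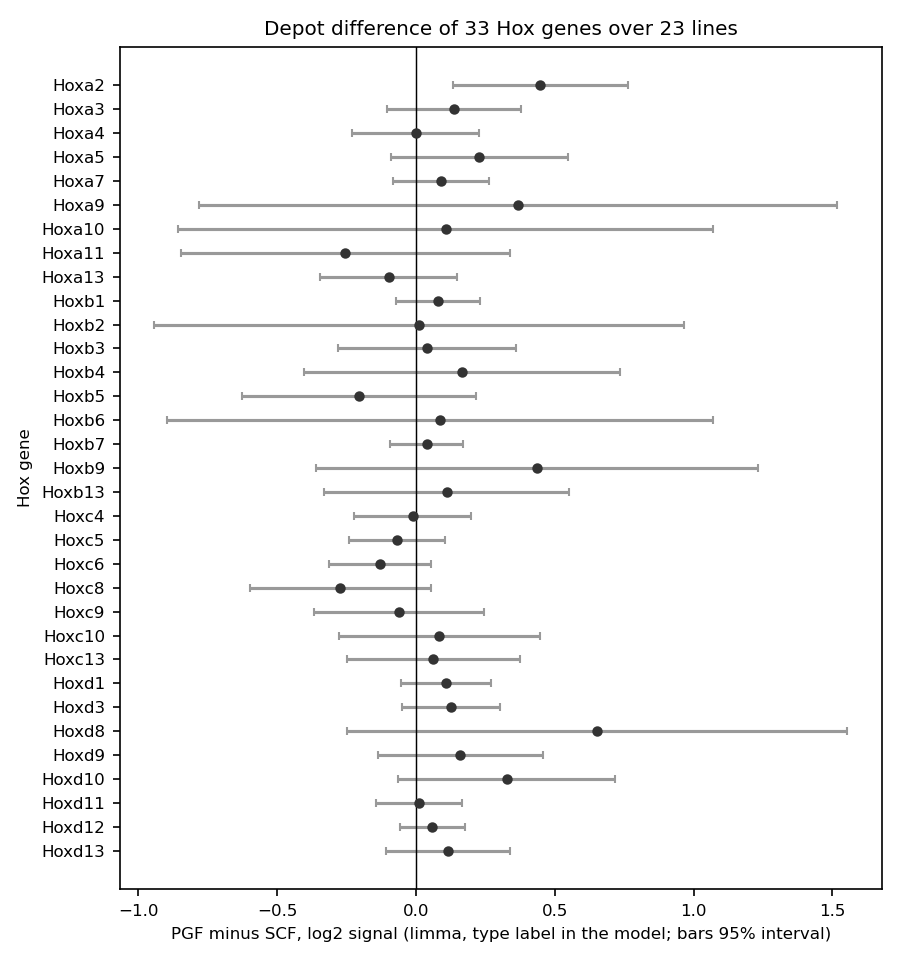
PGF minus SCF difference in log2 signal for the 33 Hox genes from limma with the type label in the model (points) with its 95% interval (bars). The fit held 11 PGF and 12 SCF lines. All Type 1 lines are PGF, so the difference rests on the 8 other PGF lines and the 12 SCF lines. The intervals reach from -0.94 to 1.55, and only that of Hoxa2 lies wholly on 1 side of 0.

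Type 3 and Other hold lines of both depots, so the depots could be compared inside a label. Within Type 3 (4 PGF and 4 SCF lines) 0 of 33 Hox genes passed (limma, adjusted p under 0.05; 0% of all genes), with 638 genes (3.51%) and 2 Hox genes at an unadjusted p under 0.05. Hoxa2 was 2.90, 3.70, 3.19 and 3.53 in the PGF lines and 2.70, 2.59, 2.85 and 2.66 in the SCF lines. Hoxd8 was 8.54, 8.09, 8.12 and 8.23 in PGF and 7.90, 7.28, 7.64 and 4.60 in SCF. Hoxc8 was 8.03, 8.56, 8.64 and 8.61 in PGF and 8.41, 8.44, 9.10 and 9.43 in SCF. For Hoxa2 and Hoxd8 every PGF line was above every SCF line, and for Hoxc8 the groups overlapped. The limma differences were 0.63 ± 0.23 for Hoxa2, 1.39 ± 0.65 for Hoxd8 and -0.39 ± 0.24 for Hoxc8, each with an adjusted p of 1. Groups did not overlap for 3 Hox genes: Hoxa2 and Hoxd8, with PGF higher as in 1.36% of all genes, and Hoxc9, with PGF lower as in 1.20%. Outside the probe sets used, groups also parted in a second Hoxa5 probe set (PGF 7.46 to 8.00, SCF 6.79 to 7.21). A second Hoxa3 probe set, of low signal, parted as well (PGF 3.93 to 4.66, SCF 3.44 to 3.84). The share of all probe sets that did so was not counted.

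Within Other (3 PGF and 4 SCF lines) 0 of 33 Hox genes passed by limma, against 19 genes in all (0.104%). At an unadjusted p under 0.05 there were 2312 genes (12.7%), 2 of them Hox. Hoxd10 was 2.74, 4.62 and 2.70 in the PGF lines and 2.45, 2.59, 2.61 and 2.63 in the SCF lines. Every PGF line was thus above every SCF line, though only PGF3-5 was far above. The limma difference was 0.78 ± 0.29 (adjusted p = 0.27), and the next smallest p-values belonged to Hoxd12 (0.19 ± 0.09, adjusted p = 0.365) and Hoxb1 (0.22 ± 0.12, adjusted p = 0.454), both of low signal. The groups did not overlap for Hoxd10, with PGF higher as in 4.41% of all genes, and Hoxc5, with PGF lower as in 4.70%.

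Whether the depot difference itself differed between Type 3 and Other was tested as an interaction in limma. It passed for 0 of 33 Hox genes and for 0% of all genes, with 1428 genes (7.85%) and 0 Hox genes at an unadjusted p under 0.05. Hoxc13 (0.62 ± 0.31, adjusted p = 0.656), Hoxc9 (-0.58 ± 0.30, adjusted p = 0.68) and Hoxd12 (-0.23 ± 0.12, adjusted p = 0.687) had the smallest p-values.

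Type 1 lines, all perigonadal, were compared with the 8 other PGF lines, which holds the depot fixed. Here 6 of 33 Hox genes passed by limma (18.2%), against 20.5% of all genes, so the Hox genes were called about as often as genes in general. Hoxc13, Hoxc10 and Hoxc5 were lower in Type 1 (9.15% of all genes were), and Hoxd9, Hoxa7 and Hoxc8 were higher (11.4% of all genes). The median difference over the 33 genes was 0.00, against -0.02 for all genes.

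Hoxc13 was at 6.23, 6.57 and 6.46 in the Type 1 lines. The other PGF lines had 6.66, 7.66 and 8.15 (lowest, median and highest), and the SCF lines 6.98, 7.54 and 7.91. It was the 1 Hox gene for which the Type 1 lines lay wholly apart from the other PGF lines and from all 20 other lines; wholly lower in Type 1 were 6.80% and 4.16% of all genes. The difference was -1.17 ± 0.20 (limma, adjusted p = 0.000259), and it passed in all 30 alternatives tried.

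Hoxc10 was at 6.55, 7.76 and 8.37 in Type 1 and at 8.23, 8.53 and 9.34 in the other PGF lines. PGF2-8 was far below, PGF3-4 below and PGF3-11 inside their range, and the difference was -1.04 ± 0.25 (limma, adjusted p = 0.00458). Hoxc5 was at 5.88, 5.44 and 5.44 against 5.86, 6.01 and 6.29, a difference of -0.47 ± 0.12 (limma, adjusted p = 0.00796). Here PGF3-4 and PGF3-11 were low and PGF2-8 was not. The 2 other Hoxc5 probe sets had r of -0.07 and 0.16 with the one used, and with the mean of the probe sets the difference was -0.12 (adjusted p = 0.338).

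Among the higher genes, Hoxd9 was at 5.89, 6.00 and 6.00 in Type 1 against 4.80, 5.16 and 6.23 in the other PGF lines, where PGF3-5 alone was above Type 1. The difference was 0.71 ± 0.21 (limma, adjusted p = 0.0184). Hoxa7, a thoracic patterning gene, was at 7.19, 6.67 and 6.63 against 6.15, 6.44 and 6.76, a difference of 0.40 ± 0.13 (limma, adjusted p = 0.0299). Hoxc8 was at 9.34, 9.34 and 9.08 against 8.03, 8.58 and 9.18, a difference of 0.69 ± 0.23 (limma, adjusted p = 0.0408). The groups overlapped for all 3 genes, each time through 1 of the other PGF lines.

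Without PGF2-8, 3 of 33 Hox genes were called: Hoxc13 and Hoxc5 of the 6 above, and Hoxc9, which had not passed with all lines. Of the other 4, Hoxc10 was at -0.54 (adjusted p = 0.058), Hoxd9 at 0.75 (0.0514), Hoxa7 at 0.21 (0.311) and Hoxc8 at 0.65 (0.146). Without PGF3-4 the called genes were 3 of the 6, Hoxa7, Hoxc10 and Hoxc13, with Hoxc5 at -0.40 (adjusted p = 0.0547), Hoxd9 at 0.69 (0.0599) and Hoxc8 at 0.65 (0.119). Without PGF3-11 Hoxc5 (-0.40, adjusted p = 0.0641), Hoxd9 (0.69, 0.0672) and Hoxc8 (0.78, 0.0653) did not pass. With array weights Hoxc10 was -0.46 (adjusted p = 0.0598) and Hoxa7 0.22 (0.0868). In all, Hoxc8 did not pass in 8 of 30 alternatives and Hoxa7 in 4. The others for Hoxc8 were quantile normalization (0.63, adjusted p = 0.0593) and leaving out PGF2-2 (0.62, 0.0715), PGF2-5 (0.69, 0.0553), PGF3-15 (0.70, 0.0515) or PGF3-5 (0.65, 0.05 after rounding). For Hoxa7 they were leaving out PGF2-2 (0.36, adjusted p = 0.0593) or PGF3-15 (0.37, 0.0572). Mesothelial markers other than Krt19 averaged high in the same 3 lines, as given above, and their part in these differences was not tested.

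**Figure D5:**
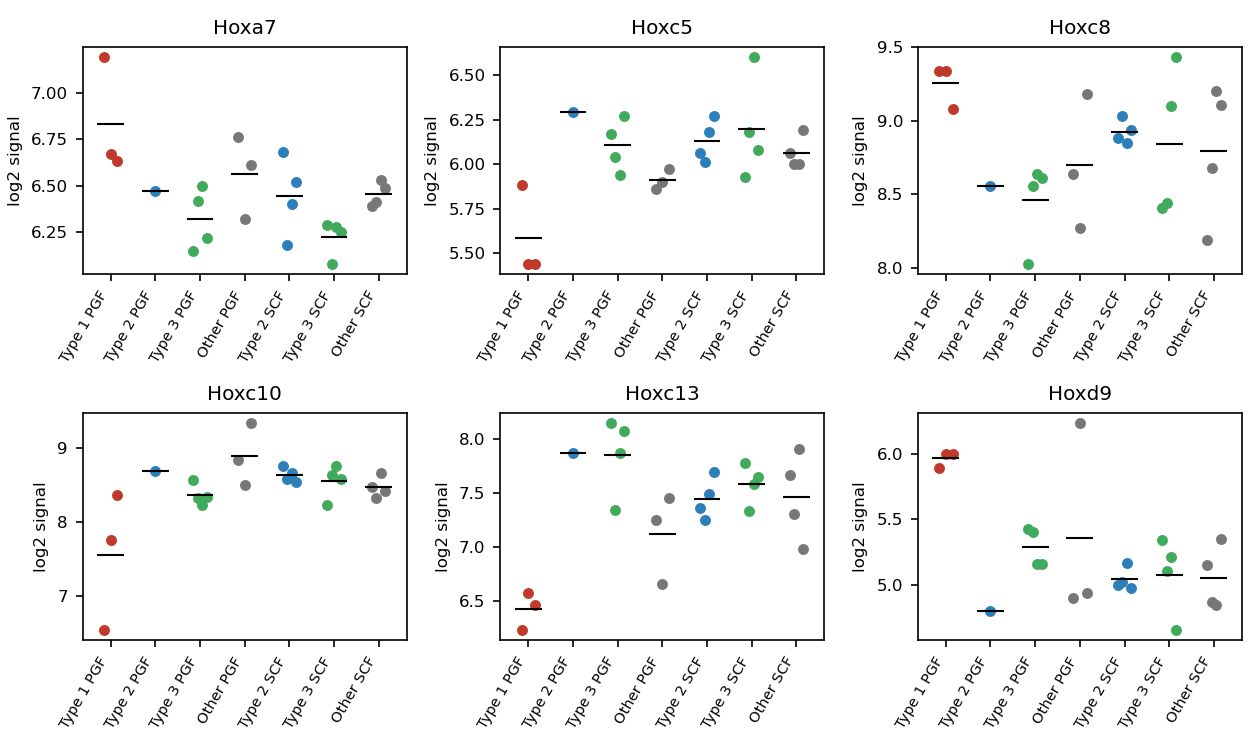
Log2 signal of the 6 Hox genes that passed between Type 1 and the other PGF lines, by type label and depot, 1 point per line with the group mean as a bar; axes do not start at 0. Hoxc13 alone separates Type 1 (6.23 to 6.57) from all 20 other lines.

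Set against the mean of Types 2 and 3, Type 1 had 5 Hox genes that passed by limma (15.2% of 33, against 23.2% of all genes), 2 higher (12.9% of all) and 3 lower (10.3% of all). This comparison shares the Type 1 lines and the PGF lines of Types 2 and 3 with the one above and mixes depots. Type 1 shared the direction given above for Hoxc13 (-1.21 ± 0.20, adjusted p = 9.72e-05), Hoxc5 (-0.57 ± 0.11, adjusted p = 0.00065), Hoxd9 (0.87 ± 0.20, adjusted p = 0.00218), Hoxc10 (-0.99 ± 0.23, adjusted p = 0.00308) and Hoxa7 (0.47 ± 0.11, adjusted p = 0.00441). Hoxc8 was at 0.50 ± 0.22 (adjusted p = 0.117). Without PGF2-8, Hoxc10 was at -0.49 (adjusted p = 0.0987) and Hoxa7 at 0.28 (0.114), and with the mean of probe sets Hoxc5 was at -0.18 (0.075).

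Types 2 and 3 differed at 0 of 33 Hox genes by limma, against 0.0495% of all genes (9 genes). At an unadjusted p under 0.05 there were 2446 genes (13.4%), 0 of them Hox. Hoxa7 had the smallest p, with 6.18, 6.47 and 6.68 (lowest, median and highest) in Type 2 and 6.08, 6.26 and 6.50 in Type 3, and the difference was 0.18 ± 0.10 (adjusted p = 0.468). Hoxc4 (6.77, 6.96 and 7.04 against 6.49, 6.66 and 7.03) and Hoxa11 (4.78, 5.82 and 6.66 against 4.46, 4.97 and 6.06) came next, with differences of 0.21 (adjusted p = 0.469) and 0.54 (adjusted p = 0.524). The types overlapped for all 3.

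The lines labelled Other differed from the mean of the 3 types at 0 of 33 Hox genes by limma, against 3.58% of all genes. At an unadjusted p under 0.05 there were 3003 genes (16.5%), 1 of them Hox. Hoxc10 was 8.33, 8.50 and 9.34 (lowest, median and highest) in Other. Its mean was 8.66 there, 8.65 in Type 2, 8.46 in Type 3 and 7.56 in Type 1, so it was Type 1 that lay apart. The limma difference was 0.43 ± 0.17 (adjusted p = 0.182), and it ran from 0.10 to 0.57 over 32 alternatives. Without PGF3-11 it was 0.57 (adjusted p = 0.0345), which made 1 Hox gene called. Leaving out PGF3-5 also gave 1 called Hox gene, Hoxd9, which was lower in Other. Hoxa3 (0.23 ± 0.12, adjusted p = 0.332) and Hoxb6 (-0.86 ± 0.46, adjusted p = 0.359) followed.

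Each line also carries a score from 1 to 4 for its differentiation, which rests on staining of stored lipid, and a score from 1 to 4 for acidification of its medium. With the type label in the model, the slope per point of differentiation score passed for 0 of 33 Hox genes in limma and for 0% of all genes, with 1143 genes (6.28%) and 2 Hox genes at an unadjusted p under 0.05. The smallest p-values belonged to 2 HoxB genes, Hoxb3 (0.22 ± 0.08 per point, adjusted p = 0.67) and Hoxb5 (0.25 ± 0.11, adjusted p = 0.777), and to Hoxa4 (-0.11 ± 0.06, adjusted p = 0.852). The slope per point of acidification passed for 0 of 33 and for 0% of all genes, with 1881 genes (10.3%) and 5 Hox genes at an unadjusted p under 0.05. Hoxc13 (-0.16 ± 0.05, adjusted p = 0.341), Hoxd9 (0.14 ± 0.05, adjusted p = 0.37) and Hoxa3 (-0.10 ± 0.04, adjusted p = 0.392) had the smallest p-values.

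Genes that act with Hox proteins were read as lists in the same fits. No member of any list passed between depots: 0 of 8 Hox cofactors, 0 of 21 Polycomb genes, 0 of 11 trithorax and demethylase genes, 0 of 17 genes of axial induction and 0 of 15 cluster neighbours (limma; 0% of all genes). Between Type 1 and the other PGF lines 5 of 8 cofactors passed (62.5%, against 20.5% of all genes), which bind DNA jointly with Hox proteins. Meis2 (1.65 ± 0.22, adjusted p = 1.53e-05) and Meis1 (1.27 ± 0.23, adjusted p = 0.000407) were higher in Type 1 by limma. Pknox2 (-2.10 ± 0.42, adjusted p = 0.0011), Meis3 (-0.47 ± 0.08, adjusted p = 0.000423) and Pbx2 (-0.52 ± 0.12, adjusted p = 0.00313) were lower.

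Of the genes that write or erase Hox chromatin states, 1 of 21 Polycomb genes passed, Pcgf2 (-0.36 ± 0.08, limma adjusted p = 0.00208), and 0 of 11 trithorax and demethylase genes, or 4.76% and 0% against 20.5% of all genes. The Pcgf2 signal was below the table median in every line (4.13 to 4.83). Against the mean of Types 2 and 3, 6 of 21 Polycomb genes (28.6%) and 1 of 11 trithorax and demethylase genes (9.09%) passed, against 23.2% of all genes. Of the Polycomb genes Ezh2, Phc2, Rbbp4 and Mtf2 were higher in Type 1 there, and Pcgf2 and Jarid2 lower. Retinoic acid, which switches on anterior Hox genes in the embryo, is made by Aldh1a1, degraded by Cyp26a1 and sensed by receptors paired with Rxra, and Dhrs3 limits its synthesis. These 4 were the called genes among 17 of axial induction (23.5%, against 20.5% of all genes): Aldh1a1 (4.58 ± 0.45, adjusted p = 3.3e-07) and Cyp26a1 (3.40 ± 0.16, adjusted p = 1e-11) were higher in Type 1 by limma, and Rxra (-1.26 ± 0.15, adjusted p = 6.53e-06) and Dhrs3 (-1.65 ± 0.37, adjusted p = 0.0034) lower.

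Of the 15 measured genes that flank or overlap the clusters, 5 passed between Type 1 and the other PGF lines (33.3%, against 20.5% of all genes). Hoxd3os1, transcribed within HoxD, was higher in Type 1 (2.22 ± 0.39, limma adjusted p = 0.000379), as was Mtx2 beside HoxD (0.34 ± 0.08, adjusted p = 0.00337). Hibadh beside HoxA (-0.58 ± 0.09, adjusted p = 0.000124), Hoxb5os (-0.60 ± 0.16, adjusted p = 0.0114) and Evx1 (-0.27 ± 0.08, adjusted p = 0.0227) were lower. The Evx1 signal was below the table median in every line (4.20 to 4.75). Over the 23 lines Hoxd3os1 and Hoxd9 had r = 0.82, rho = 0.69, and r = 0.63 without the Type 1 lines.

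Outside the HoxB set and the pairs Hoxa9 with Hoxa10 and Hoxa11 with Hoxa11os, a Hox gene's nearest gene over the 23 lines was a gene of neither its cluster nor another Hox cluster. Hoxc13 was most like Rps27l (r = 0.93), Aen (0.91), Acad8 (0.91), Ccng1 (0.91) and Kazald1 (0.91), and these had r of 0.78 to 0.85 with it without the Type 1 lines. Hoxd10 was most like Tnip1 (r = 0.91), Cxcl2 (0.90), Ccl3 (0.87), Acod1 (0.86) and Csf2 (0.86), over lines of which PGF3-5 alone had a Hoxd10 signal above 3.20. The nearest gene of Hoxd9 was Ppp1r16a (r = 0.89), of Hoxc10 Sh3kbp1 (0.88), of Hoxc8 Celf2 (0.83) and of Hoxd8 Gm38462 (0.78). These coefficients were the highest out of 18192 for each gene and are descriptions only.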

How the data were processed

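The deposited table holds log2 expression values, 1 column per line and 45101 probe sets. The authors made them with MAS5, per the submitters' processing notes, from biotin-labelled cRNA (250 ng of total RNA). Their scaling is not given in the labels, and MAS5 values of weakly expressed genes carry more error. Probe sets with 1 gene symbol (34958; 932 had several, 9211 none) were kept, without controls, and the brightest on average stood for its gene (18193 genes). The depot was read from the clone-name prefix. No value was filtered or rescaled, and 20 of the 33 Hox genes would pass a filter on low values, as would 12307 of all 18193 genes. limma 3.58.1 (R 4.3.3) was fitted to all genes and 23 lines, with Benjamini-Hochberg adjusted p over all genes; the code was tested on simulated data. Alternatives left out each line and changed the filter, probe set rule, normalization, array weights, intensity trend and clone-name number. The number of arrays limits the precision.

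Every Hox gene is given by its level and range. Statistics are given for those past the threshold, or otherwise for the 3 with the smallest p. Of each other list up to 4 called genes are named by smallest p, and Pbx2 and Evx1 were added after their values were seen. Members and lists were chosen with earlier results of these data known.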

Additional observations from a re-analysis of the deposited data

Results flagged for a closer look

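In 13 of 99 tests of 1 Hox gene in 1 group (Type 2, Type 3 or Other), a single line lay far from the rest of its group by Dixon's criterion. For normally distributed values chance gives about 1 in 20 such tests. The share of all genes set apart by this criterion was not counted, so no excess among Hox genes can be read from the 13. The genes of a line share its array, so the tests are not independent.

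SCF3-1 accounts for 6 of them within Type 2. It was low for Hoxa5 (7.19, the others 7.43 to 7.47), Hoxa9 (6.58, the others 8.94 to 9.47) and Hoxa10 (5.55, the others 7.35 to 8.00). It was high for Hoxb13 (4.57, the others 3.86 to 3.98), Hoxd10 (2.93, the others 2.64 to 2.70) and Hoxd13 (5.25, the others 4.66 to 4.81). Hoxb7 was high in SCF3-8 of the same type (4.18, the others 3.98 to 4.00).

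Within Type 3, SCF3-9 was low for Hoxd8 (4.60, the others 7.28 to 8.54) and Hoxd9 (4.66, the others 5.11 to 5.43). SCF1-12 was low for Hoxb9 (5.56, the others 6.82 to 7.89), and PGF3-15 was low for Hoxa13 (3.36, the others 3.77 to 3.96). Within Other, PGF3-5 was high for Hoxd9 (6.23, the others 4.85 to 5.35) and Hoxd10 (4.62, the others 2.45 to 2.74). Type 1 holds 3 lines, too few for this test, so PGF2-8 could not be set apart by it.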

How the results depend on the processing

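Hoxc13 passed between Type 1 and the other PGF lines under all 30 alternatives (-1.30 to -1.07), and no Hox gene result or correlation for which alternatives were run changed direction. The cofactor, Polycomb, trithorax, axial induction and neighbour genes were not rerun under them. The number of Hox genes called in that comparison (6) was 3 to 6 when 1 line was left out and 5 or 6 under the other settings. Against the mean of Types 2 and 3 (5 called) it was 4 to 6 without 1 line and 11 with array weights, where 7051 of all genes passed in place of 4216. For Other against the 3 types (0 called) it was 0 to 1 without 1 line. The depot comparisons, Type 2 against Type 3 and both score slopes had 0 called under every setting. The 12 Hox genes above the table median in all lines became 2 at a log2 level of 7 and 9 with the mean of probe sets. The causes of these changes were not tested. The r of Hoxa9 and Hoxa10 (0.98) was 0.83 as rho, 0.91 without Type 1 and 0.75 without the 2 farthest lines; this and the other correlation settings were chosen after seeing the data. No paired analysis was possible because the replicate numbers only name lines in accession order. Low signals limit Hoxa2, Hoxa4, Hoxa13, Hoxb1, Hoxb5, Hoxb7 and most HoxD genes, Hoxa9 and Hoxa10 in PGF2-8 and Hoxd8 in SCF3-9, for which changes near the floor would be compressed.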
